A study of Homo sapiens with 12 samples.

Results

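Flow-sorted single cells of the human embryonic kidney line HEK293T were compared with wells of lysate of the same line, both amplified with the SMART-seq V4 kit. These were 3 of the 12 samples of a study that set the amplification method LAST-seq beside SMART-seq and CEL-seq2. The cells formed 1 sample of 6 wells, and the lysate formed 2 samples, given with the A60 spike-in mix (lysate replicate 1) and the ERCC spike-in mix (lysate replicate 2). None of the wells had a treatment, a drug or a genotype other than that of the parent line, and sorting had excluded dead cells by a dye. HEK293T is an adenovirus-transformed embryonic kidney line that also carries the SV40 large T antigen, and the study worked with this line alone for SMART-seq.

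Of the 26 lysate wells, 20 were kept. They were selected on the number of genes detected with at least 1 read, so that this number is a description here and was not tested. The 6 wells left out, all of lysate replicate 2, detected between 7785 and 8148 genes, and the kept well nearest to the threshold of 8500 detected 11886. The single cells detected between 7742 and 8160 genes. Each well left out was near-identical to 1 of the 6 cells: the mean squared difference of a pair over the sum of its reads lay between 0.940 and 1.0001, where counting noise alone gives about 1 and the nearest pair called different gave 11.5. In lysate replicate 1, 3 pairs of kept wells were near-identical as well (1.03, 1.18 and 1.20), were averaged and were counted once. The comparison therefore rests on 6 cells against 7 and 10 lysate wells. The wells of a sample are not replicates of a condition, and with 1 sample of cells the comparison carries no test. Count models on summed reads were run only as alternatives. Differences are read against the spread of the wells and the difference between the lysate samples.

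SMART-seq primes the poly-A tail with oligo-dT, copies each mRNA by reverse transcription with template switching and amplifies the full-length cDNA by PCR. It has no UMIs, so copies of 1 molecule are counted as separate reads. Single cells of a growing culture differ in state, such as their place in the cell cycle and the genes that are being transcribed in bursts. The labels call the other samples single-cell lysate. How the lysate was prepared, whether its wells drew on 1 pool and how much went into each well are not given in the sources used here. The amount of RNA in a well and the use of a whole cell in place of lysate therefore cannot be told apart.

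The wells held close to the same number of reads on genes, between 812582 and 818780 in the cells, 784352 and 817761 in lysate replicate 1, and 747676 and 777820 in lysate replicate 2. Levels below are reads on a gene per 1000000 reads on all genes of the well, abbreviated RPM. They are not divided by gene length, so they compare wells and not genes. Spike-in species held 2.87 to 3.61% of all reads in the cells and 4.82 to 6.16% in lysate replicate 2. The labels name no spike-in mix for the cells. The 24 species of the A60 mix, which are also in the ERCC mix, held 30.9 to 41.0% of the spike-in reads in the cells and 30.8 to 42.6% in lysate replicate 2. In lysate replicate 1 the spike-in reads were few, from 98 to 6168 in a well, and in 5 of its 10 wells more than 10% of them lay outside the A60 species. Wells 1 and 7 of lysate replicate 1 stood apart from the other 8. Their summed ribosomal protein level was 38258 to 40036 RPM against 62879 to 71018 RPM, and that of the identity genes named next 3054 to 3257 RPM against 4868 to 5626 RPM. The identity of the line was checked with 23 genes that HEK293T is known to express, of which 21 were listed. BEX3 lay between 2050 and 2826 RPM in the cells, VIM between 161 and 255, and CKB between 584 and 1685. NEFM, a neurofilament gene, had no read in any cell and averaged 25.4 and 14.6 RPM in the lysate samples. Of the 17 identity genes that averaged 10 RPM or more in a sample, 6 (35.3%) were at least 2-fold lower in the cells and none higher, where 26.0% of all genes tested were lower. Their median log2 ratio was -0.69 and -0.61 to the lysate samples. Of 10 blood markers 2 were listed, and their sum was 0 to 46.5 RPM in the cells. The fibroblast markers summed to 0 to 108 RPM in the cells, through LUM in 1 of them, and to at most 26.5 RPM in a lysate well.

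The first comparison asked how a cell and a lysate well divide about the same number of reads. The cells put more reads on fewer genes. The 100 most abundant genes of a well held 20.1 to 22.6% of its reads in the cells, 17.03 to 18.6% in lysate replicate 1 and 17.4 to 18.2% in lysate replicate 2, with no overlap. It took 491 to 589 genes to reach 50% of the reads in a cell and at least 752 in a lysate well.

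**Figure D1:**
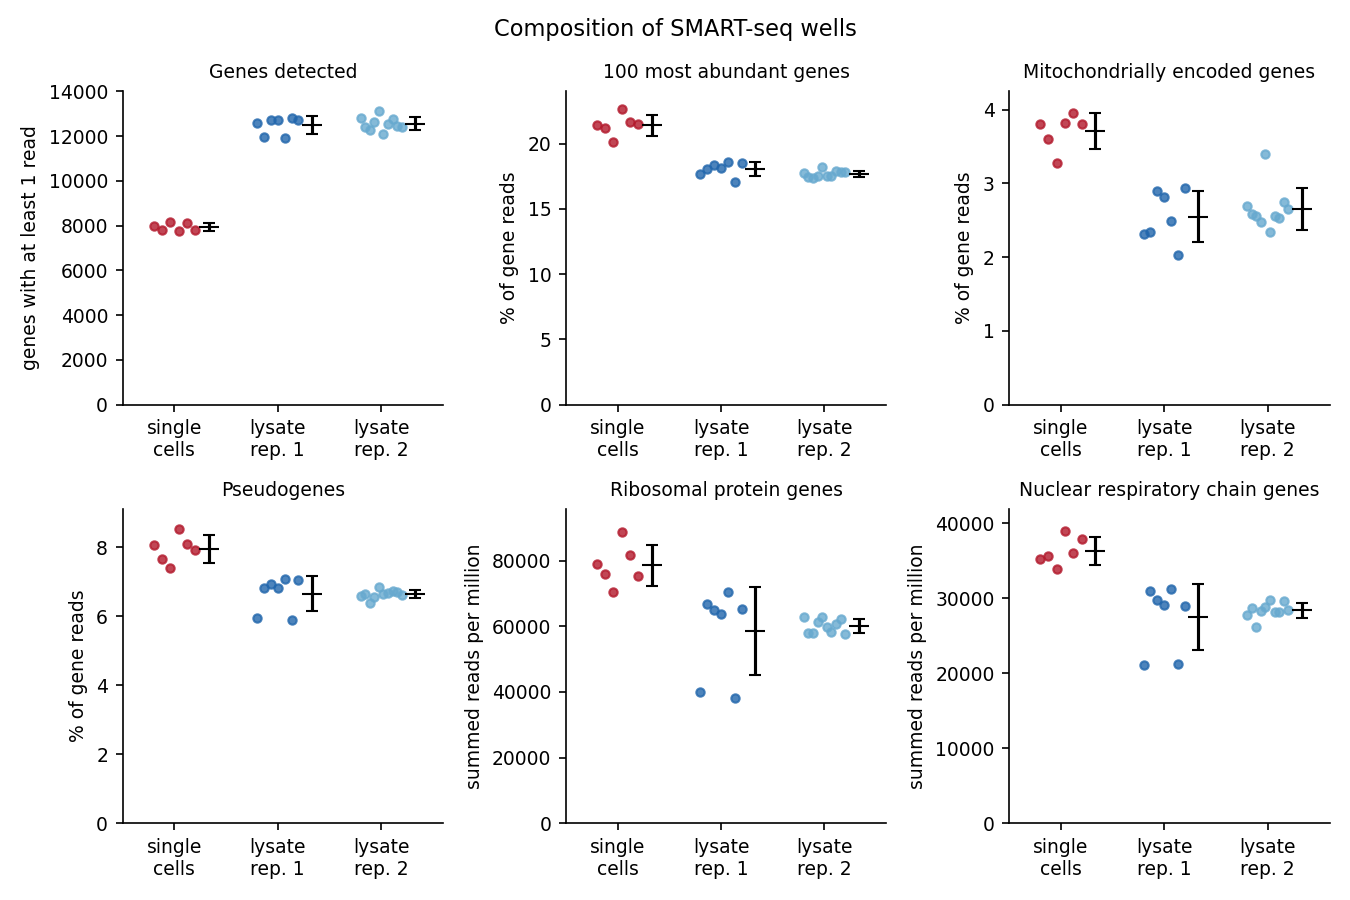
Each panel gives 1 measure per well, as points, for the 6 single cells, 7 wells of lysate replicate 1 and 10 wells of lysate replicate 2 (near-identical wells averaged), with the mean and SD beside them. The y axes give the number of genes, the percentage of gene reads or summed RPM. The cells detected 7742 to 8160 genes, on which the wells had been selected, and lay above both lysate samples for the 100 most abundant genes, pseudogenes and the nuclear respiratory chain, while 2 wells of lysate replicate 1 lay far below the rest for ribosomal protein genes.

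Mitochondrially encoded genes held a larger share in the cells, 3.71% ± 0.243 (SD, n = 6 wells), than in lysate replicate 1 with 2.55% ± 0.346 (SD, n = 7 wells) or lysate replicate 2 with 2.66% ± 0.284 (SD, n = 10 wells). The ranges of the cells (3.27 to 3.96%) and lysate replicate 2 (2.35 to 3.399%) overlapped through 1 well, well 10, and without it the difference to the mean of the lysate samples was 1.149 percentage points in place of 1.11 (left out after seeing the data). The 13 mitochondrial mRNAs code for subunits of the respiratory chain. None of them passed 2-fold, but 11 were higher in the cells than in both lysate samples, with a median log2 ratio of 0.58 and 0.52. MT-CO2, a subunit of cytochrome c oxidase, lay between 4190 and 6157 RPM in the cells and between 1835 and 3285 RPM in the lysate wells. MT-ATP8 and MT-CYB were also above every lysate well in every cell. For the 2 mitochondrial rRNAs the medians were 0.18 and 0.15, and over both lysate samples the median was 0.17 with totals, 0.01 with TMM factors and -0.00053 with DESeq2 size factors.

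Protein-coding genes held 90.0 to 90.7% of the reads in the cells and 91.4 to 92.7% in the lysate wells. Pseudogenes, copies of genes that mostly make no protein, held 7.95% ± 0.399 (SD, n = 6 wells) in the cells and 6.64% ± 0.508 (SD, n = 7 wells) and 6.64% ± 0.122 (SD, n = 10 wells) in the lysate samples. At an equal 700000 reads they made up 28.7 to 30.1% of the genes detected in a cell and 20.3 to 22.2% in a lysate well. The denominator of this share, the number of genes detected, was 7603 to 8020 in a cell and at least 11700 in a lysate well. The wells had been selected on that number, so this share is a description and not read as a result about pseudogenes. Long noncoding RNAs held 0.929 to 1.402% of the reads in the cells, which overlapped with 0.914 to 1.06% and 1.04 to 1.151% in the lysate samples.

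The second comparison asked which genes differed in level. Of the 25016 genes listed, 10183 averaged at least 10 RPM in 1 or more of the 3 samples. With 1 RPM added, 609 of them were at least 2-fold higher in the cells than in each lysate sample, 5.98% of those tested, and 2651 were at least 2-fold lower, 26.0%. The minimum of 10 RPM bears on both counts. Of the 609 higher genes 345 (56.7%) reached it only in the cells, and among the 9623 genes that reached it in a lysate sample 264 (2.74%) were higher. Of the 2651 lower genes 1918 (72.4%) were under it in the cells. The median log2 ratio over all genes was -0.20 and -0.23 to the lysate samples. The lysate samples differed from each other by 2-fold at 1029 genes, 10.1%. In 400 of the 609 higher genes more than 50% of the summed level came from 1 cell, and 305 were detected in at most 2 cells. With the median over wells in place of the mean, 220 genes were higher, and without lysate replicate 2 the number was 922.

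**Figure D2:**
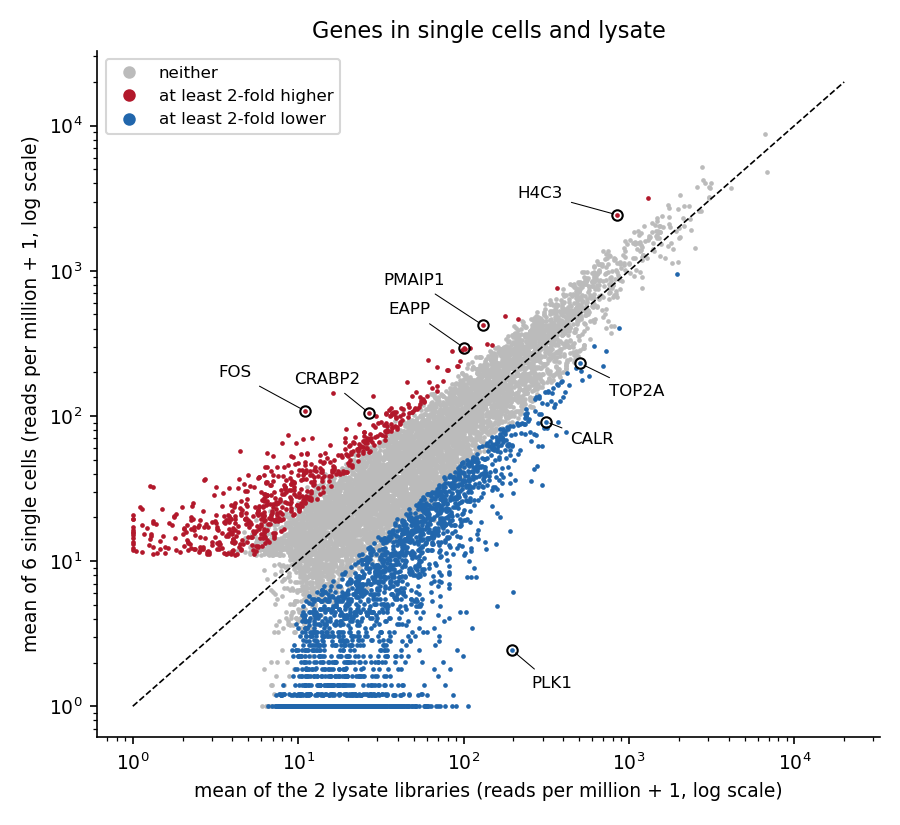
Each point is 1 of the 10183 genes tested, with the mean of the 2 lysate samples on the x axis and the mean of the 6 single cells on the y axis, both as RPM + 1 on a log scale. Red points are the 609 genes at least 2-fold higher and blue points the 2651 genes at least 2-fold lower than in each lysate sample, and the dashed line marks equal levels. The row of points at 1 on the y axis holds genes without a read in any cell.

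In 11 genes, 0.108% of those tested, the level was at least 2-fold higher and every cell lay above every lysate well. CRABP2, which carries retinoic acid to its nuclear receptor, came first by the smaller of its 2 ratios, with 97.7, 131, 71.4, 114, 136 and 70.9 RPM in the 6 cells, 7.65 to 56.0 RPM in lysate replicate 1 and 6.49 to 34.8 RPM in lysate replicate 2. This was 3.32-fold and 5.01-fold above the lysate means. EAPP, an E2F-associated protein, held 153 to 444 RPM in the cells against 46.1 to 152 RPM, so that its lowest cell lay just above the highest lysate well. CNIH4, a receptor of the early secretory pathway, held 308 to 655 RPM against 150 to 284 RPM, and DYNLT1, a light chain of dynein, held 633 to 879 RPM against 289 to 503 RPM. H4C3, a replication-dependent histone gene, is described with the cell cycle. Another 5 were processed pseudogenes, namely RPL23AP2, RPL23AP12, RPL7P15, ENSG00000230199 and ENSG00000256843, between 2.15-fold and 2.55-fold higher. With TMM factors as with DESeq2 size factors, 5 of the 11 were called, while CNIH4, DYNLT1, RPL7P15, RPL23AP2, RPL23AP12 and ENSG00000256843 were less than 2-fold above at least 1 of the lysate samples. Reads of such copies can come from a parent gene of nearly the same sequence, so their levels are uncertain.

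In 129 genes, 1.27%, the level was at least 2-fold lower and every cell lay below every lysate well. The 12 with the largest ratios had few or no reads in the cells. CCDC117 had no read in any cell, 31.9 to 243 RPM in lysate replicate 1 and 36.2 to 191 RPM in lysate replicate 2. Against a floor of 3 reads over the 6 cells, which is 0.613 RPM, it was at least 161-fold lower. Reads are not independent molecules here, so this bound and those below are on reads and not on the amount of mRNA. CCND3, the cyclin D3 of the G1 phase, had no read in the cells and averaged 78.3 and 90.2 RPM in the lysate samples, at least 128-fold more. YRDC, which acts in the modification of tRNA, was at least 141-fold lower, and the kinase gene UCK1 of pyrimidine salvage at least 113-fold. FASTK, AKAP8L, BYSL, BRMS1L, CAAP1 and FAM120AOS also lacked a read in every cell, with bounds from 84.6-fold to 109-fold. SNX9, a sorting nexin of endocytosis, had 1 read in 1 cell and averaged 71.0 and 98.7 RPM in the lysate samples. PLK1, the polo-like kinase of mitosis, had 7 reads, all in cell 5, which is 8.59 RPM in that cell. In the lysate wells PLK1 lay between 86.7 and 311 RPM.

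**Figure D3:**
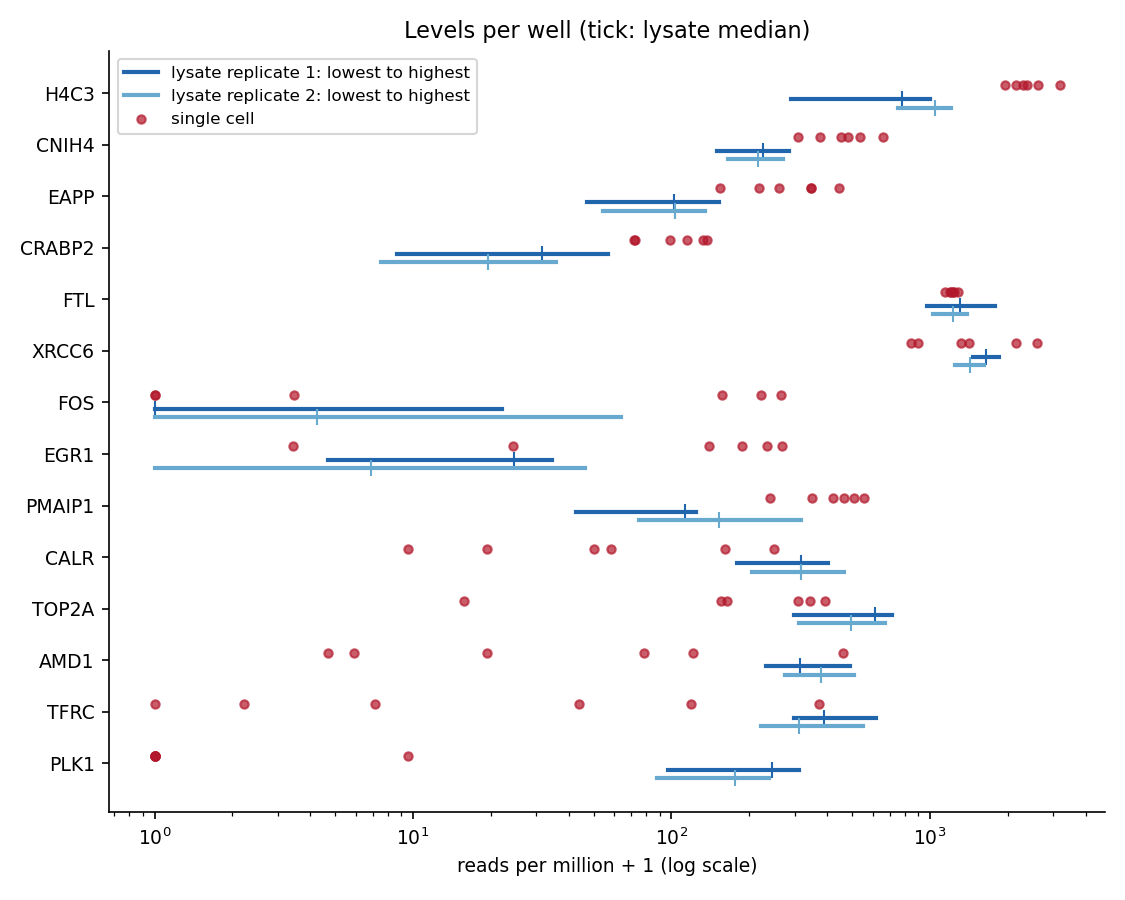
Levels of 14 genes as RPM + 1 on a log scale, with a red point for each of the 6 single cells and a blue line from the lowest to the highest well of each lysate sample, on which a tick marks the median. In H4C3, CNIH4, EAPP and CRABP2 the cells lie above the lysate wells, while AMD1 and TFRC are spread far more widely among the cells than among the wells of a lysate sample.

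The share of genes past 2-fold differed between types and lengths of genes. Of 8656 protein-coding genes 5.66% were higher and 29.6% lower, and of 1036 processed pseudogenes 2.22% were higher and 2.12% lower. Of 272 long noncoding RNAs 26.8% were higher and 14.3% lower. Of all higher genes 56.7% reached 10 RPM only in the cells. This share was not counted by type, so the 26.8% is not read as a result about long noncoding RNAs. Among protein-coding genes with a mean of at least 50 RPM in the lysate, the median log2 ratio was 0.40 for 56 genes with under 1000 bases of annotated exons and -0.46 for 861 genes with at least 8000 bases. The median lysate level fell over these bins as well, from 261 to 101 RPM, and the parts of length and level in the ratio were not tested.

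Most genes of the ribosome and the respiratory chain were higher in the cells, by less than 2-fold. The cytosolic ribosomal proteins build the ribosome, and none of the 79 was past 2-fold in either direction. Their median log2 ratio was 0.50 and 0.41, against -0.20 and -0.23 for all genes. Of the 79, 74 were higher in the cells than in both samples, as were 36.7% of all genes tested. The median ratio differed by level. Over both lysate samples it was -0.35 between 20 and 50 RPM in the lysate, 0.02 between 200 and 500 RPM and 0.24 from 500 RPM on. The lists were not matched for level. RPL7 held 1058 to 1544 RPM in the cells and 641 to 782 RPM in the lysate wells, and RPL31 held 786 to 1342 RPM against 338 to 760 RPM. RPS2 was at 2325 to 2771 RPM in the cells, within the lysate range of 1743 to 3273 RPM. The 74 nuclear-encoded genes of the respiratory chain also had none past 2-fold, with a median of 0.47 and 0.40. NDUFS5, a subunit of complex I, held 838 to 1113 RPM in the cells against 310 to 788 RPM, and COX7A2, of cytochrome c oxidase, held 560 to 1109 RPM against 216 to 559 RPM. Without wells 1 and 7 of lysate replicate 1, an alternative chosen after seeing the data, the median to that sample was 0.30 for the ribosomal proteins and 0.32 for the respiratory chain.

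The shares of lower genes in other housekeeping groups are given beside the 26.0% of all genes tested, which was not matched for level. Among protein-coding genes with a mean of at least 50 RPM in the lysate, 5.36 to 26.9% were lower, depending on the length bin. Among 33 translation factors 6 (18.2%) were lower and none higher, and EIF3B, a subunit of the initiation factor eIF3, held 0 to 111 RPM in the cells against 133 to 513 RPM. Among 43 splicing factors 9 (20.9%) were lower and none higher, HNRNPM with 8.60 to 228 RPM against 201 to 637 RPM. Of 29 heat shock proteins and chaperones 3 (10.3%) were lower, namely HSPA1B, BAG3 and CALR. HSPA8, the constitutive HSP70, was not past 2-fold but lay below every lysate well in every cell, with 1223 to 1658 RPM against 1785 to 3238 RPM. Of 31 genes of the proteasome 1 (3.23%) was lower. Of 17 KRAB zinc finger genes 8 (47.1%) were lower, above the share of all genes, and 2 were higher.

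Immediate-early genes are transcribed within minutes of a stimulus and hold transcription factors such as FOS and EGR1. Of 26 listed genes, 15 averaged 10 RPM or more in a sample, and 3 of these only in the cells. Among the other 12, FOS, EGR1, IER2 and DUSP1 were higher and 2 genes lower, where 2.74% of all genes with this level in a lysate sample were higher. Another 2 of the 15 were higher but reached 10 RPM only in the cells, so that their calls largely follow from the minimum. The 2 lower genes are 13.3% of the 15, below the 26.0% of all genes tested. FOS held 264, 0, 222, 156, 2.45 and 0 RPM in the 6 cells and 0 to 62.8 RPM in the lysate wells. EGR1 held 233, 23.3, 139, 2.44, 268 and 187 RPM against 0 to 45.4 RPM. ATF3, a factor of the stress response that is not 1 of the 4 higher genes named above, held 0 to 83.5 RPM against 0 to 24.5 RPM. IER2 held 36.9 to 144 RPM against 1.31 to 53.4 RPM. Each of these overlapped with the lysate wells, and the cells high in FOS were not all high in EGR1. JUNB, which reached 10 RPM only in the cells, was past 2-fold through 1 cell with 165 RPM and had no read in the other 5. The summed level of the list was 458 to 1190 RPM in the cells and 272 to 601 RPM in the lysate wells.

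Of 16 targets of the transcription factor p53 tested, 5 (31.25%) were higher, beside 5.98% of all genes. Another 4 (25%) were lower, near the 26.0% of all genes. Of the 5, 2 reached 10 RPM only in the cells. Among the 13 targets that reached it in a lysate sample 3 were higher, beside 2.74% of all such genes. HEK293T cells express the large T antigen, which binds p53. PMAIP1, which codes for the BH3-only protein NOXA, held 508, 348, 554, 420, 241 and 462 RPM in the cells, 41.7 to 123 RPM in lysate replicate 1 and 73.6 to 316 RPM in lysate replicate 2. CDKN1A, the inhibitor p21, was past 2-fold through 1 cell with 109 RPM and had no read in the other 5. FAS, SESN1 and TNFRSF10B were also high in some cells and without a read in others. MDM2, the ligase that limits p53, had 1 read in the 6 cells and averaged 39.3 and 27.7 RPM in the lysate samples. In the ATF4 stress response list 3 of 23 genes were higher, of which 2 reached 10 RPM only in the cells. Among the 20 that reached it in a lysate sample 1 was higher, beside 2.74% of all such genes. Of the 23, 4 (17.4%) were lower, beside 26.0% of all genes.

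The next comparison asked whether cells differed in genes of the cell cycle more than lysate wells did. The single cells were not selected for a phase. The list of 46 S phase genes summed to 6288 to 9174 RPM in the cells, 6744 to 8720 RPM in lysate replicate 1 and 7230 to 8314 RPM in lysate replicate 2. The coefficient of variation (CV, the SD over the mean) of this sum was 12.8% in the cells, 9.23% and 4.33% in the lysate samples. The CV of the cells rested largely on cell 6, without which it was 8.17%, below that of lysate replicate 1 with all its wells. Wells 1 and 7 of lysate replicate 1 held its highest S phase sums, 8322 and 8720 RPM, and raised its CV. With all wells, the CV of the cells exceeded the mean CV of the lysate samples by 6.03 percentage points. Without wells 1 and 7, left out after seeing the data, it did so by 7.84. The list of 56 genes of G2 and mitosis summed to 12777.5, 12684.5, 12950, 9308, 9399 and 12197.5 RPM in the 6 cells, so that cells 4 and 5 lay apart from the other 4. In the lysate samples it summed to 10759 to 13701 RPM and 10839 to 12446 RPM, and its CV was 14.9% in the cells, 10.5% and 4.24% in the lysate. Leaving out 1 cell at a time gave 12.3 to 16.6% for the cells. Wells 1 and 7 of lysate replicate 1 also held its highest sums of this list, 13701 and 13325 RPM. Without them the CV of the cells exceeded the mean CV of the lysate samples by 9.53 percentage points in place of 7.52. Cell 4 was low in CCNB1, the cyclin B1 of mitosis, with 180 RPM against 521 to 1278 RPM in the other cells, and had 1.22 RPM of the spindle kinase gene TTK. It was also highest in the replication-dependent histones and the S phase list. Cell 5 held 641 RPM of CCNB1 and 250 RPM of TTK.

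**Figure D4:**
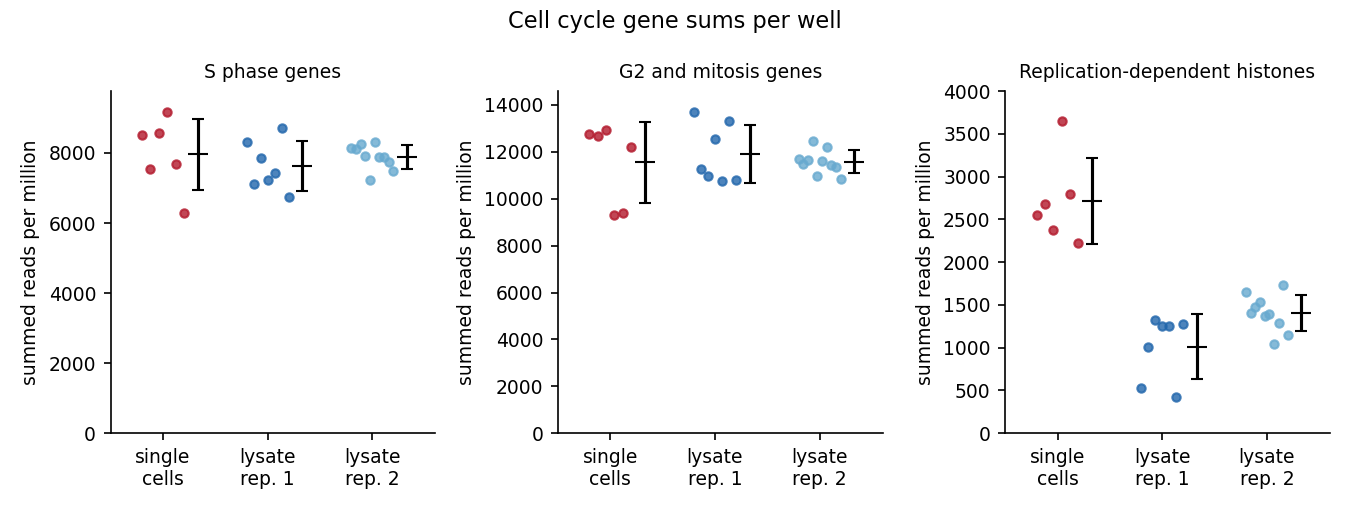
Summed levels of 3 gene lists per well in RPM, as points, with the mean and SD of each sample beside them. Cells 4 and 5 are the 2 low points of the G2 and mitosis list, at 9308 and 9399 RPM, and the histone sums of the 6 cells, from 2222 to 3655, lie above those of all lysate wells.

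Replication-dependent histone mRNAs are made in S phase and end in a stem-loop in place of a poly-A tail, so that an assay primed on poly-A sees a minor part of them. Their sum was 2222 to 3655 RPM in the cells, 425 to 1329 RPM in lysate replicate 1 and 1048 to 1729 RPM in lysate replicate 2. Most of it was 1 gene. H4C3 held 2280, 2367, 2147, 3170, 2629 and 1950 RPM in the cells against 290 to 997 RPM and 753 to 1200 RPM in the lysate samples, and was 3.58-fold and 2.37-fold higher. Of the 9 histone genes tested it was the only one past 2-fold upward (11.1%, beside 5.98% of all genes). H1-2 and H2AC20 were lower (22.2%, near the 26.0% of all genes). Of the 9, 2 reached 10 RPM only in the cells, and neither of these was called higher. H1-4 held 38.0 to 192 RPM in the cells and 36.1 to 207 RPM in the lysate wells. Wells 1 and 7 of lysate replicate 1 held the lowest histone sums, 425 and 530 RPM.

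Of single genes in these lists, 9 of 46 S phase genes (19.6%) were lower and 1 (2.17%) higher, and 8 of 55 G2 and mitosis genes (14.5%) were lower and 2 (3.64%) higher. The shares of lower genes lie below the 26.0% of all genes. All genes tested of both lists reached 10 RPM in a lysate sample. Of all genes with this level in a lysate sample 2.74% were higher, which lies between the shares of the 2 lists. MCM2, of the replicative helicase, had 224 RPM in cell 6 and no read in the other 5, against 41.1 to 219 RPM in the lysate wells. TOP2A, the topoisomerase of mitotic chromosomes, held 343, 14.7, 155, 162, 390 and 308 RPM against 298 to 714 RPM. PCNA, the sliding clamp of replication, was not past 2-fold and held 768 to 1323 RPM in the cells against 492 to 908 RPM in the lysate wells.

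The last comparison asked how much wells differed at each gene. Over 5163 genes that averaged 20 RPM or more in each sample, the median CV was 0.765 in the cells, 0.387 in lysate replicate 1 and 0.365 in lysate replicate 2. The median of the log2 ratio of the CV in the cells to that in the lysate was 0.96. In 2947 genes, 57.1%, the CV in the cells was at least 1.5 times that of each lysate sample, and in 60 genes, 1.16%, it was at least 1.5 times below each. The share of genes more spread in the cells did not follow the level in 1 direction. It was 49.6% between 20 and 50 RPM in the lysate, 66.6% between 50 and 100 RPM and lower in each bin above, down to 35.1% from 500 RPM on. Between 50 and 100 RPM in the lysate the median CV was 1.04 in the cells against 0.476 and 0.462, and from 500 RPM on it was 0.228 against 0.193 and 0.122.

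**Figure D5:**
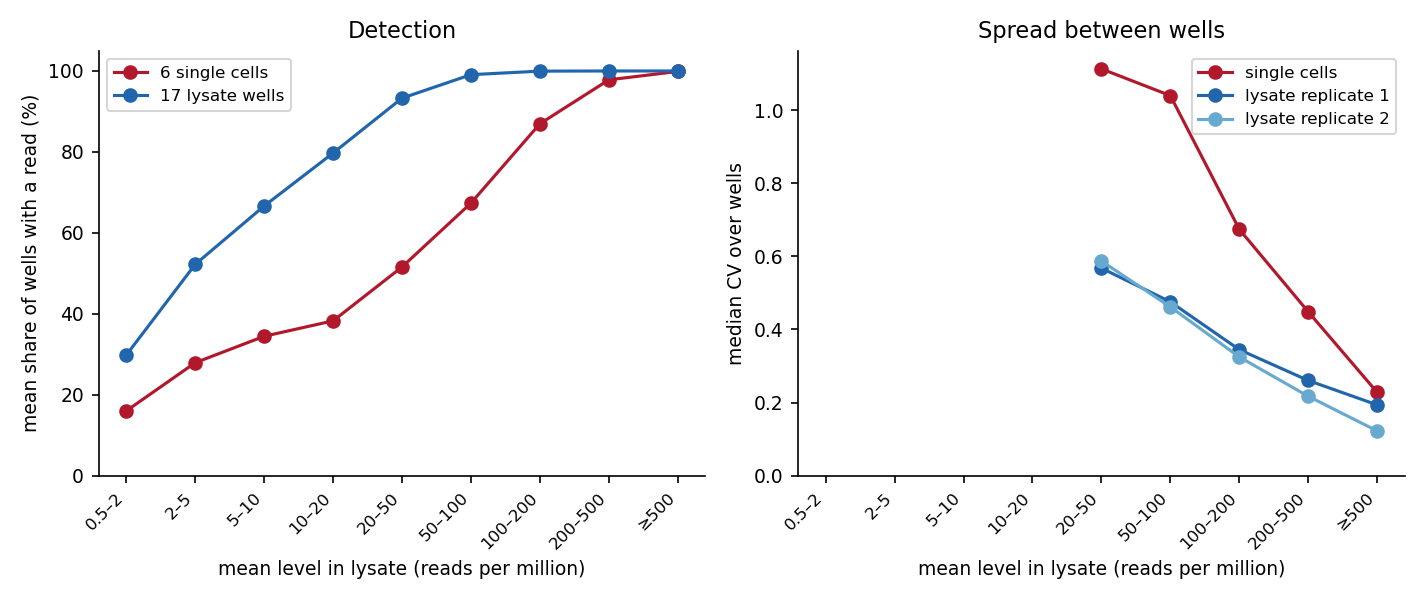
The x axes give bins of the mean lysate level in RPM, and the panels give the mean share of wells with at least 1 read of a gene and the median CV over wells. In the bin from 50 to 100 RPM a gene had a read in 67.3% of the cells and 99.1% of the lysate wells, and its median CV was 1.04 in the cells. Wells had been selected on the number of genes detected, and the CV is given from 20 RPM on.

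The detection of genes is given as a description, since wells had been selected on it. Of 6140 genes with a read in all 17 lysate wells, 3246 (52.9%) had one in all 6 cells and 50 had none in any. Conversely, 91.7% of the 3538 genes detected in all cells were detected in all lysate wells. The number of genes with a read in any cell was 14837, of which 683 had none in the lysate wells, and 630 of these were seen in 1 cell. Across the genes tested, Pearson's r of log10(RPM + 1) between a pair of cells was 0.556 to 0.575, between pairs of wells of a lysate sample 0.646 to 0.714, and between a cell and a lysate well 0.506 to 0.581. These are correlations across genes, which are not independent replicates.

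Among the 8 genes most spread in the cells relative to the lysate were AMD1, TFRC, DFFA, ZC3H14, XRCC6, NETO2 and TCEAL1, with CVs 4.87 to 6.24 times the larger one of the lysate samples. AMD1, a decarboxylase of polyamine synthesis, held 120, 460, 3.69, 77.0, 4.91 and 18.3 RPM in the cells and 231 to 506 RPM in the lysate wells. TFRC, the transferrin receptor, held 0, 43.0, 370, 118, 6.14 and 1.22 RPM against 221 to 619 RPM. DFFA, the inhibitor of an apoptotic nuclease, kept its mean, 146 RPM against 133 and 130 RPM, but was at 0 in 2 cells and at 489 RPM in another.

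XRCC6 differed from these in being abundant in every cell. It codes for the Ku70 subunit of the dimer that binds broken DNA ends, and held 843, 899, 1322, 1416, 2145 and 2592 RPM in the 6 cells, a CV of 0.454, against CVs of 0.0738 and 0.0893 in the lysate samples. Its wells overlapped, with 1247 to 1847 RPM in the lysate. The annotated pseudogene XRCC6P2 followed it, with 140, 155, 252, 263, 369 and 452 RPM in the same cells, a CV of 0.446, and it took 15.0% of the reads of the pair in the cells and 14.4% and 15.2% in the lysate samples. Of the 1773 windows of 50 bases in XRCC6P2, the length of read 1, 414 (23.4%) also occur in an annotated transcript of XRCC6. The level of XRCC6P2 is therefore uncertain. A stretch of both shows how close they are. In XRCC6 it lies in coding exon sequence on the plus strand, chr22:41636119-41636188, and in XRCC6P2 in the single exon on the minus strand, chrX:150232630-150232699, in GRCh38 with GENCODE 44. The sequences are printed 5′ to 3′ in the direction of the transcript, and the capital marks the only base of 70 that differs.
XRCC6: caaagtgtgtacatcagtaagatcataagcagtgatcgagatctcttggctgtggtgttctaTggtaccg
XRCC6P2: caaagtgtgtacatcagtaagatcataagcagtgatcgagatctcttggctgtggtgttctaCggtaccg

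The 4 genes with the lowest CV in the cells relative to the lysate were pseudogenes of abundant housekeeping genes: RPS2P5, RPS7P4, FTLP3 and UBBP4. Their parents code for ribosomal proteins, the light chain of ferritin and polyubiquitin. RPS2P5 held 446 to 479 RPM in the cells, a CV of 0.0284, where the counting of its reads alone gives 0.0515, and its CVs in the lysate samples were 0.225 and 0.116. Such pseudogenes shared 8.82 to 57.1% of their windows of 50 bases with the parent, and their levels are uncertain for the same reason. The parents were also even among the cells, with CVs of 0.0395 for FTL, 0.0569 for RPS7, 0.0588 for UBB and 0.0756 for RPS2. FTL held 1142 to 1286 RPM in the cells, and its CVs in the lysate samples were 0.204 and 0.115. UBB was at 1700 to 1962 RPM in the cells and 875 to 1352 RPM in the lysate wells, without overlap.

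Lists differed in how often their genes were more spread in the cells. None of the 13 mitochondrial mRNAs and 7 of 79 ribosomal protein genes (8.86%) passed the rule, against 57.1% of all genes. The count for the ribosomal proteins rested on lysate replicate 1, whose wells 1 and 7 stood apart for these genes. Against lysate replicate 2 alone 45 of the 79 (57.0%) had a CV at least 1.5 times as high in the cells, against 72.5% of all genes. Without wells 1 and 7 the rule was passed by 36 of 79 (45.6%), against 61.7% of all genes. For the mitochondrial mRNAs these numbers were 3 and 2 of 13. Against each lysate sample the rule was passed by 32 of 41 S phase genes (78.0%) and 31 of 51 of G2 and mitosis (60.8%). For the chaperones it was 18 of 27 (66.7%) and for cholesterol synthesis 12 of 17 (70.6%). Without wells 1 and 7 these shares were 75.6, 64.7, 70.4 and 66.7%, against 61.7% of all genes. Of all genes between 50 and 100 RPM in the lysate 66.6% passed with all wells, and the lists were not matched for level.

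The spike-in species are added with the lysis buffer and carry no difference between cells. Of the 22 species with a read in all 6 cells and all 10 wells of lysate replicate 2, the CV of the share of spike-in reads was higher in the cells for 20 and at least 1.5 times as high for 17. The median CV was 0.462 in the cells and 0.201 in lysate replicate 2, a median log2 ratio of 1.29, beside 0.998 for the genes against the same sample. In all, 49 species had a read in a cell and 74 in a well of lysate replicate 2. The dilution of the spike-in given to the cells is not stated in the sources used here, and the part of the assay in the spread of the genes was not tested.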

How the data were processed

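Single HEK293T cells and lysate were amplified with the SMART-seq V4 kit and sequenced. The authors aligned the reads to GRCh38 (build and bcl2fastq 2.20 per the submitters' processing notes), subsampled the wells to equal depth and deposited whole-number counts of exonic reads per gene and well. SMART-seq has no molecular identifiers, so reads are not independent molecules and read counts understate the error. Wells below 8500 detected genes were left out, and near-identical wells of 1 sample (mean squared difference over sum below 2, over genes with at least 20 reads in the pair) were averaged. The members, lists and rules were chosen with earlier results of these data known.

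Spike-in rows were removed and counts divided by the total per well. Gene types and exon lengths came from GENCODE 44, which held 24930 of the 25016 genes. Genes averaging at least 10 RPM in 1 sample were compared by ratios of means with 1 RPM added, and were called at 2-fold against each lysate sample. The CV was compared at 20 RPM or more in each sample with a factor of 1.5. Shares of detected genes used reads thinned to 700000 per well. Named genes were the 12 highest and 12 lowest by the smaller ratio among those called, without overlap of wells and with at least 20 RPM in the higher group (11 qualified as higher), the 8 highest and 4 lowest by CV ratio from 50 RPM on, and members of 25 lists. Some genes that the rule names are not reported here. edgeR 4.0.16 and DESeq2 1.42.0 (R 4.3.3) on reads summed per sample were alternatives. The steps were tested on simulated data. Python 3.11.15, numpy 2.4.6, scipy 1.17.1, pandas 2.3.3 and matplotlib 3.10.9 were used.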

Additional observations from a re-analysis of the deposited data

Results flagged for a closer look

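A well was set apart where its gap to the nearest other well exceeded the 95% critical value of Dixon's test. Chance alone marks about 1 in 20 groups, and 5 of 51 groups tested were marked. Spike-in species held 0.780% of the reads in well 8 of lysate replicate 1, where the median well held 0.0278%. The other 4 marks were all on well 10 of lysate replicate 2. Spike-in species held 6.16% of its reads (median 5.16%), the A60 species 42.6% of its spike-in reads (median 31.6%), mitochondrially encoded genes 3.399% of its gene reads (median 2.58%) and unprocessed pseudogenes 0.725% (median 0.511%). The causes were not tested.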

How the results depend on the processing

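Under the alternatives tried, no main result given as a difference or ratio changed direction, and nor did the 23 genes named by ratio. Main results that are counts of genes have no direction to change. The 23 genes were picked in these same data for wells without overlap between cells and lysate. Their direction could hardly change, so this is not support for them. The median log2 ratios of 5 lists (translation factors, glycolysis, cholesterol synthesis, proteasome and cytoskeleton) were above 0 with totals and below 0 with TMM factors and with DESeq2 size factors, and that of the mitochondrial rRNAs was below 0 with DESeq2 size factors. The 609 genes higher in the cells became 164 with all deposited lysate wells kept, 1047 without a filter on low values, 161 with a filter at 50 RPM, 220 with the median over wells, 141 at 4-fold, 1254 with edgeR's quasi-likelihood test and 978 with DESeq2, both at an adjusted p of 0.05. Leaving out 1 cell or 1 lysate sample gave 666 to 922, the last without lysate replicate 2. The tests on summed reads set 1 sample of cells against 2 of lysate and take the spread from the lysate samples. At an unadjusted p under 0.05 edgeR gave 1758 higher and 3103 lower. The 2651 lower genes became 4246 without a filter, 786 at 50 RPM and 1547 at 4-fold. The 2947 genes more spread in the cells became 1550 with all wells kept and 875 at 100 RPM, and the median log2 CV ratio of 0.96 became 0.64, 0.84 and, without wells 1 and 7 of lysate replicate 1, 1.054. That alternative, and leaving out well 10 of lysate replicate 2, were chosen after seeing the data. The spike-in share, 1.95 percentage points lower in the cells than in lysate replicate 2, became -1.22 with all wells kept, while against lysate replicate 1 it was 3.14 points higher. TMM factors and DESeq2 size factors moved the median of all genes by -0.15 and -0.17 on the log2 scale, and the higher genes from 18.7% of all calls to 13.1% and 12.5%. The other 130 values of main results stayed within the limits set, as did 475 values of the 23 genes named by ratio, while 77 moved further. Causes were not tested. No paired analysis was possible because the labels give the cells no replicate number shared with the lysate.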
